A study of Homo sapiens with 4 samples.

Results

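The replication-dependent histone genes lie in 3 clusters on human chromosomes 6 and 1, and the BRPF3 binding sites at these clusters are described here. A peak was a member when its centre fell in the HIST1 window (chr6:26000000-28000000), the HIST2 window (chr1:149750000-149870000) or the HIST3 window (chr1:228610000-228660000), all in hg19. This gave 82 of 13160 peaks in asynchronous cells, 53 of 11532 in mimosine-arrested cells and 85 of 13431 in cells treated with hydroxyurea (HU). Merging peaks of the 3 lists that overlapped by at least 1 bp gave 89 histone-cluster regions of 14039 in all, of which 82 lay in HIST1, 6 in HIST2 and 1 in HIST3.

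Chromatin immunoprecipitation and sequencing (ChIP-seq) was done on 4 libraries from RKO, an established human colon carcinoma line, grown in DMEM with serum. A homemade rabbit antibody against BRPF3 was used on asynchronous cells without treatment, on cells kept in 0.5 mM mimosine for 22 h, and on cells given the same mimosine block, released for 3 h and treated with 3 mM HU for 1 h 30 min (HU cells). A rabbit IgG library came from the HU condition, and the names of all 3 peak lists give it as their control. A description field of these libraries says BRPF1/2, whereas their titles and antibody say BRPF3, which is used here. Each condition had 1 library, so no value has a replicate, no test between conditions was possible and every difference describes these libraries. Read depth is unknown. The score of a peak is the authors' own value, in the form of 10 times the negative base-10 logarithm of the peak caller's p-value, and it is used within a list to rank or filter peaks. The 95% intervals of shares are exact (Clopper-Pearson) and reflect counting error alone.

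Replication-dependent histone genes encode the core histones H2A, H2B, H3 and H4 and the linker histone H1, and their transcripts rise in S phase to supply the histones that package newly made DNA. Their mRNAs end in a stem-loop bound by SLBP in place of a poly(A) tail, and their transcription is driven by the cyclin E/CDK2 substrate NPAT in nuclear histone locus bodies. BRPF3 is a scaffold protein that builds MYST-type acetyltransferase complexes and pairs with the acetyltransferase HBO1, which modifies histone H3 and takes part in the firing of replication origins. Mimosine holds cells near the G1/S boundary, and HU starves replication forks of nucleotides.

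The gene content of the clusters was taken from the RefSeq table of GRCh38.p14, which gives the order of genes but not their positions in the build of the peaks. It lists 68 protein-coding clustered histone genes, 55 on chromosome 6 and 13 on chromosome 1, in 6 runs. On chromosome 6, a run of 2 genes (H2AC1 and H2BC1) is followed by a run of 32 from H1-1 to H4C8, which holds 5 H1, 4 H2A, 8 H2B, 7 H3 and 8 H4 genes and is interrupted by HFE, a regulator of iron uptake. After 9 other genes, which include the butyrophilin genes BTN3A2 to BTN1A1, come 5 histone genes from H2BC11 to H2AC12. After 5 more genes, PRSS16 to ZNF184, come 16 histone genes from H2BC13 to H2BC17. On chromosome 1 there is a run of 11 genes from H2BC18 to H2AC21 and a pair, H2AC25 and H2BC26. No gene was assigned to a peak, because an annotation of the build of the peaks was not used here. For the same reason, whether every listed gene lies inside a window was not determined.

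The promoters of these genes share short motifs by histone class, and some of them are nearly identical to each other, which bears on how reads at the clusters can be placed. RefSeq sequences of the 250 bases before the start (GRCh38.p14) matched 67 of the 68 genes, out of 35116 promoters in all, and motifs were searched on both strands. The octamer ATTTGCAT, the site of POU2F1, was present in 11 of 16 H2A, 15 of 20 H2B, 1 of 13 H3, 0 of 6 H1 and 0 of 12 H4 promoters, against 1.63% of all promoters. CCAAT was in all H1, H2A, H2B and H3 promoters and in 3 of 12 H4 promoters (86.6% of the 67, against 32.0% of all promoters). GGTCCG, letters of the H4 site II element, was in 11 of 12 H4 promoters and 14 of the 67, against 9.43% of all. TATAAA was in 65.7% of histone promoters and 10.7% of all. A match describes the letters in the window and not a bound site. Promoters from HIST1 and HIST2 are given 5′ to 3′ on the strand of their gene, with the octamer (H2BC4 and H2BC21) or GGTCCG (H4C14) in capitals.

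H2BC4 (chromosome 6, minus strand): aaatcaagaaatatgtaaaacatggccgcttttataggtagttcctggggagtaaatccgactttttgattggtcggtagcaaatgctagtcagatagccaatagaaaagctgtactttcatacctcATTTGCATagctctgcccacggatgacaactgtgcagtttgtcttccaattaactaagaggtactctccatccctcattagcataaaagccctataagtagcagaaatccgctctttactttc
H2BC21 (chromosome 1, minus strand): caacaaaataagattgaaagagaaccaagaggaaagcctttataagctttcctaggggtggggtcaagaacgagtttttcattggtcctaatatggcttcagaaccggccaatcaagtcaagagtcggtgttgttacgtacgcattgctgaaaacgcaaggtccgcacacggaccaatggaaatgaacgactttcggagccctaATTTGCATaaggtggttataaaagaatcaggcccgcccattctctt
H4C14 (chromosome 1, plus strand): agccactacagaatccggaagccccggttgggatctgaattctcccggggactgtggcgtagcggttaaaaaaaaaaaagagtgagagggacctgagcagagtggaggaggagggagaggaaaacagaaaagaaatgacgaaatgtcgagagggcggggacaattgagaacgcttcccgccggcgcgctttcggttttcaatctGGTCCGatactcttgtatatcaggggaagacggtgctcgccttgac

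H2BC4 shares this stretch with the divergent H2AC6, whose promoter is the same sequence read from the other strand over 245 bases, and H2BC21 shares 235 bases with H2AC20 in the same way. H4C14 was identical to H4C15 over 250 of 250 bases. On the same strand, H2AC18 and H2AC19 shared a run of 249 bases and H3C14 and H3C15 a run of 246. All of these same-strand copies belong to the chromosome 1 run of 11 genes. A read that falls wholly inside such a copy has no unique place in the genome, and how the authors handled reads of this kind is not given in the sources used here.

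BRPF3 peaks were far denser in the HIST1 window than in most of the genome. The 2 Mb window held 73 asynchronous, 45 mimosine and 78 HU peaks, which is 36.5, 22.5 and 39.0 per Mb. Chromosomes 1 to 22 and X together had 4.47, 3.92 and 4.56 peaks per Mb, so HIST1 was 8.16, 5.74 and 8.54 times as dense. Against chromosome 6 alone the ratios were 8.81, 6.37 and 9.13. The peaks covered 196 kb of HIST1 in asynchronous cells, 86.1 kb in mimosine cells and 211 kb in HU cells, or 9.78%, 4.31% and 10.6% of the window, against 1.33%, 0.835% and 1.48% of chromosomes 1 to 22 and X. Neighbouring HIST1 peaks were a median of 12.7 kb (asynchronous), 14.3 kb (mimosine) and 11.9 kb (HU) apart, where the medians over whole lists were 60.6, 63.5 and 59.0 kb.

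When the genome was laid out in 1529 tiles of 2 Mb, the median tile held 6 asynchronous, 5 mimosine and 6 HU peaks. HIST1, itself one of the tiles, was the densest in asynchronous and in HU cells when all peaks were counted. The share of tiles with at least as many peaks was thus 0.0654% in each, which is 1 tile, HIST1 itself. In mimosine cells 15 tiles, HIST1 included, held at least as many, or 0.981% (95% interval 0.550 to 1.61%). The densest of these was chr11:64000001-66000000 with 63 peaks. The mimosine list was thus dense at HIST1 as well, but HIST1 was not its top tile.

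**Figure D1:**
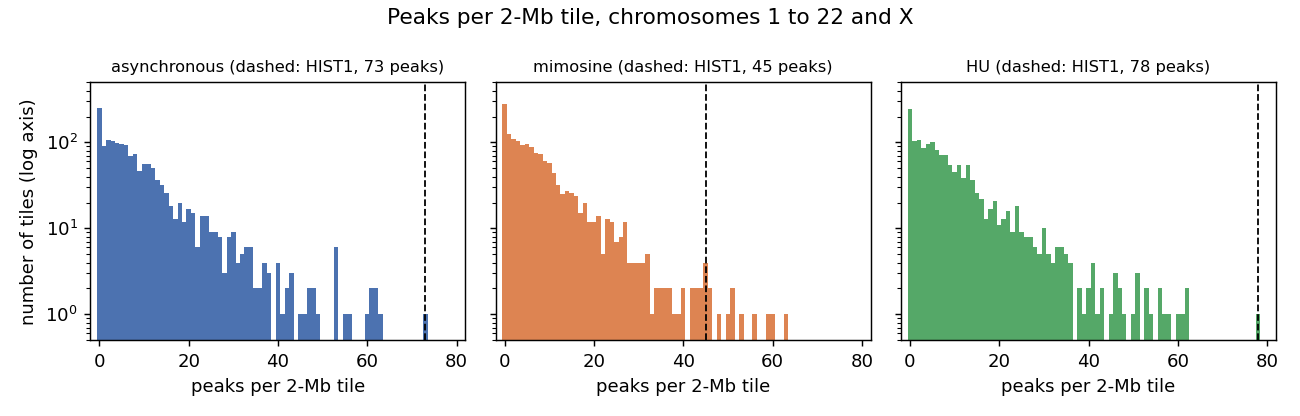
Number of 2-Mb tiles on chromosomes 1 to 22 and X (log axis) by the number of BRPF3 peaks in the tile, 1 panel per list, with HIST1 as a dashed line. HIST1 is the rightmost tile in asynchronous (73 peaks) and HU cells (78 peaks), while 15 tiles reach its 45 peaks in mimosine cells.

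The density was not limited to the HIST1 window itself. The 2 Mb after it held 48 asynchronous, 24 mimosine and 46 HU peaks, and the 2 Mb before it held 11, 10 and 10. HIST1 therefore stood between a flank near the density of the genome and a flank well above it. The peaks nearest the start of HIST1 in asynchronous cells were chr6:26020349-26022671 inside (score 266) and chr6:25991870-25994204 outside (score 567). At its end they were chr6:27858117-27863976 inside (score 3148) and chr6:28047527-28049694 outside (score 159), 139 and 48.6 kb from the edge. In mimosine cells the corresponding peaks were chr6:26021253-26022376 (72.8) and chr6:25991971-25993195 (214) at the start, and chr6:27859418-27863818 (2188) and chr6:28047968-28049327 (83.4) at the end. In HU cells they were chr6:26020371-26022986 (161) and chr6:25991763-25993695 (330), then chr6:27869465-27871742 (96.7) and chr6:28047418-28050026 (254).

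Most HIST1 peaks ranked low within their list, whereas those of HIST2 ranked high. The median score of HIST1 peaks was 210 (asynchronous), 201 (mimosine) and 179 (HU), where whole-list medians were 562, 277 and 534. The median HIST1 peak thus stood at the 25.6th, 40.2nd and 24.4th percentile of its list. Scores of 500 or more were carried by 22, 12 and 23 HIST1 peaks (30.1%, 26.7% and 29.5%), against 53.2%, 33.7% and 52.0% of the lists. HIST1 peaks were also narrower than the list medians of 2644, 1855 and 2898 bp, at 2315, 1487 and 2279 bp. Neither trait was particular to HIST1. In the 2 Mb after it the median percentiles were 24.2, 30.2 and 26.8 and the median widths 1843, 1212 and 1879 bp. In the 2 Mb before it, with few peaks, they were 50.2, 36.6 and 49.6, and 2376, 1182 and 2317 bp. In HIST2 the median score was 1561, 712 and 1672, at the 80.8th, 75.3rd and 82.5th percentile. Over all 3 windows, 5 asynchronous, 2 mimosine and 5 HU members had a score of 3100 or more, a value at which many scores pile up, and 7.45%, 2.91% and 7.25% of all peaks did.

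The strong HIST1 peaks were gathered in a few stretches, with gaps between them. In the first 300 kb of the window there were 19 asynchronous, 20 mimosine and 19 HU peaks, with median scores of 692, 196 and 663. Of these asynchronous peaks 11 scored 500 or more and 16 (84.2%) overlapped a mimosine peak. Over the whole asynchronous list 22.6% of peaks overlapped no mimosine peak. The next 400 kb held 19, 7 and 17 peaks, with an asynchronous median of 166, and 7 of its asynchronous peaks (36.8%) had a mimosine partner. From 700 to 900 kb no list had a peak. The longest gap between neighbours was 263 kb in asynchronous cells (chr6:26660353-26923806) and in HU cells (chr6:26660786-26923778), and 326 kb in mimosine cells (chr6:26660380-26986613).

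Beyond the gap, the bin from 1100 to 1200 kb held 5, 4 and 6 peaks with top scores of 1673, 1032 and 2714. The 500 kb after it held 19, 5 and 21 peaks, of median score 117, 63.4 and 103, and 5 of its asynchronous peaks (26.3%) had a mimosine partner. The 200 kb from 1700 to 1900 kb held 9, 8 and 11 peaks, of which 5, 4 and 5 scored 500 or more, and the last 100 kb held none. The first 300 kb, the bin from 1100 kb and the 200 kb from 1700 kb make up 0.6 Mb of the window and were put together after their values were seen. They held 33 asynchronous, 32 mimosine and 36 HU peaks, with 18, 11 and 19 at 500 or more, and the other 1.4 Mb held 40, 13 and 42, with 4, 1 and 4 at 500 or more. All 6 HIST1 regions with a split mimosine peak lie in the strong stretches, so the peak counts there are closer than the sites and lengths. In those stretches 25 of 33 asynchronous peaks (75.8%) had a mimosine partner, and asynchronous peaks covered 112 kb against 70.4 kb for mimosine peaks. In the rest 13 of 40 (32.5%) had a partner, and the lengths were 83.2 and 15.7 kb. In the whole asynchronous list 22.6% of peaks had no mimosine partner. The stretches were grouped with their scores known, and partner shares rose with score, so this contrast is not separate from that choice. In the order of the RefSeq table chromosome 6 also has stretches of histone genes parted by other genes, but the positions of the 2 were not compared.

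**Figure D2:**
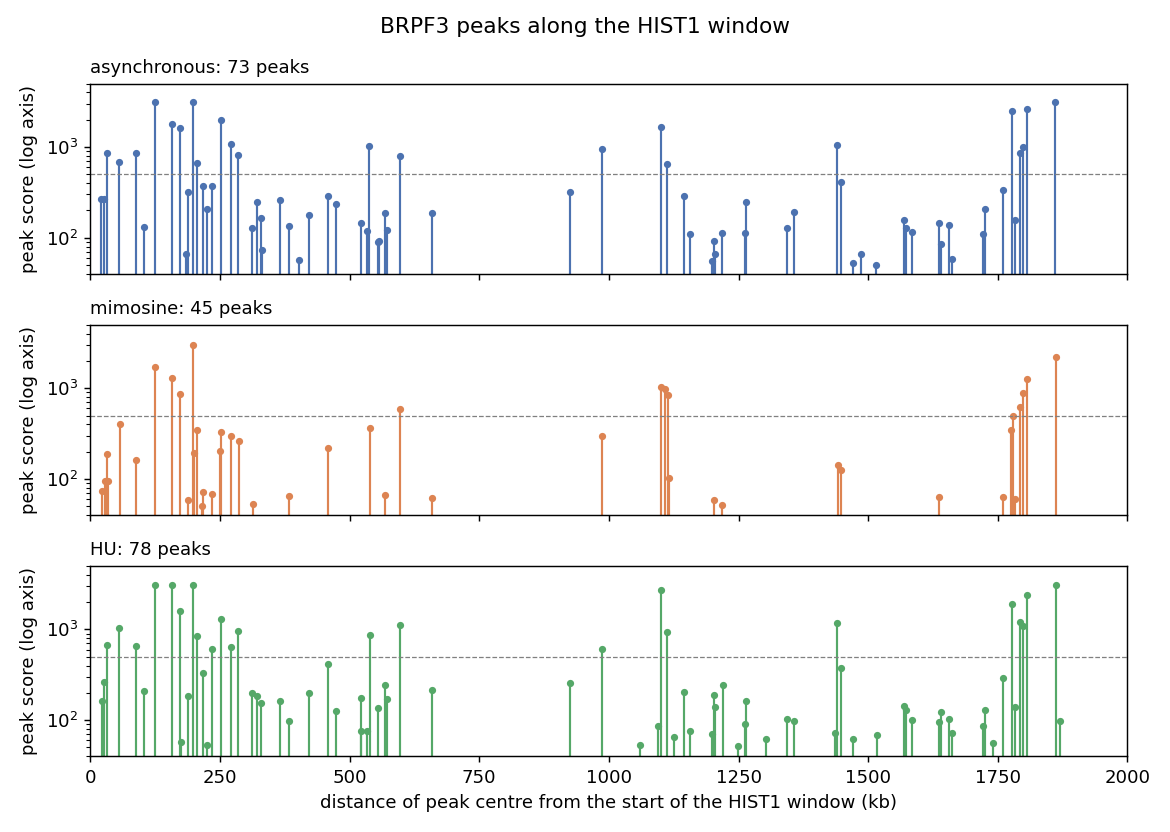
Score (log axis) of each BRPF3 peak against the distance of its centre from the start of the HIST1 window in kb, 1 panel per list. The dashed line marks a score of 500. Peaks above it gather in the first 300 kb, near 1100 kb and from 1700 to 1900 kb, no list has a peak from 700 to 900 kb, and mimosine peaks are few between the tall groups.

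The highest-scoring HIST1 regions were shared by all 3 lists. The region chr6:26194529-26200980 had a score of 3100 over 6452 bp in asynchronous cells, 3031 over 5777 bp in 2 peaks in mimosine cells, where it was the top HIST1 region, and 3100 over 6351 bp in HU cells. At chr6:27858117-27864586 the scores were 3148, 2188 and 3100 and the widths 5860, 4401 and 6348 bp. The region chr6:26122390-26128762 scored 3100, 1712 and 3100 over 6373, 5239 and 6182 bp. In each of these 3 regions the mimosine peaks covered the shortest length.

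At chr6:26155405-26161118 the scores were 1803 (asynchronous), 1313 (mimosine) and 3100 (HU). The region chr6:27803600-27808380 scored 2645, 1260 and 2373, and chr6:27774230-27780440 scored 2472, 495 and 1906. Within its own list this last region stood at the 89.8th (asynchronous), 66.0th (mimosine) and 85.4th (HU) percentile. The region chr6:27097347-27103133 scored 1673, 1032 and 2714, at the 82.6th, 83.4th and 91.2nd percentile.

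The widest HIST1 region, chr6:27106432-27116207, spanned 9776 bp. It was 1 asynchronous peak of 9601 bp with a score of 646 (54.6th percentile), 3 mimosine peaks of 6776 bp in total with a top score of 984 (82.4th percentile), and 1 HU peak of 9647 bp with a score of 942 (67.1st percentile). Here the highest-scoring mimosine peak ranked above the asynchronous and HU peaks of the region, each within its own list. The same order was seen at chr6:27796825-27800005 (68.3, 79.8 and 71.3 for asynchronous, mimosine and HU), chr6:26457346-26460490 (32.2, 43.2 and 43.0), chr6:26194529-26200980 (96.0, 96.9 and 96.1) and, in HIST2, chr1:149809518-149827002 (96.0, 98.4 and 92.5), which were named for this order after their values were seen. The other regions of the 44 called in all 3 lists did not show this order. At chr6:27437660-27442393, for example, the percentiles were 70.0 (asynchronous), 31.2 (mimosine) and 73.8 (HU). The share of regions with this order in the series was not computed. At chr6:26194529-26200980 the mimosine score of 3031 was below the 3100 of both other lists. At chr1:149809518-149827002 the asynchronous and mimosine top scores were both 3100. Scores of 3100 or more were held by 980 asynchronous, 336 mimosine and 974 HU peaks, so ranks near the top depend on these numbers.

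HIST2 held the widest and some of the strongest histone-cluster regions. Its 8 asynchronous, 7 mimosine and 6 HU peaks covered 35.7, 26.5 and 37.9 kb, or 29.8%, 22.1% and 31.6% of 120 kb. No list had a peak in the 120 kb before it, and the 120 kb after it held 3, 2 and 3 peaks. The region chr1:149809518-149827002 spanned 17485 bp. In asynchronous cells it held 2 peaks of 16594 bp in total, with a top score of 3100. In mimosine cells it held 2 peaks of 13145 bp with a top score of 3100, and in HU cells 1 peak of 17240 bp with a score of 3050. It was the only merged region of the 89 wider than 10 kb. Whether the near-identical promoters of this run lie under it was not determined, since gene positions in hg19 were not used here.

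On either side of that region were further strong ones. At chr1:149801677-149807104 the widths were 4868, 3814 and 5428 bp and the scores 1731, 712 and 1645. The region chr1:149829737-149835296 had widths of 5299, 4447 and 5552 bp and scores of 2972, 1113 and 3113, the last being the highest HU score in the 3 windows. At chr1:149855429-149861108 there were 2 asynchronous peaks (4908 bp, top score 1391), 1 mimosine peak (3501 bp, 667) and 1 HU peak (5259 bp, 1698). The region chr1:149782552-149785629 was weaker, with 653, 179 in 2 peaks, and 665. The remaining HIST2 region, chr1:149763712-149765105, was called at 174 in asynchronous and 89.9 in HU cells and not in mimosine cells. In all 5 HIST2 regions called in all lists, the mimosine peaks covered the shortest length.

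**Figure D3:**
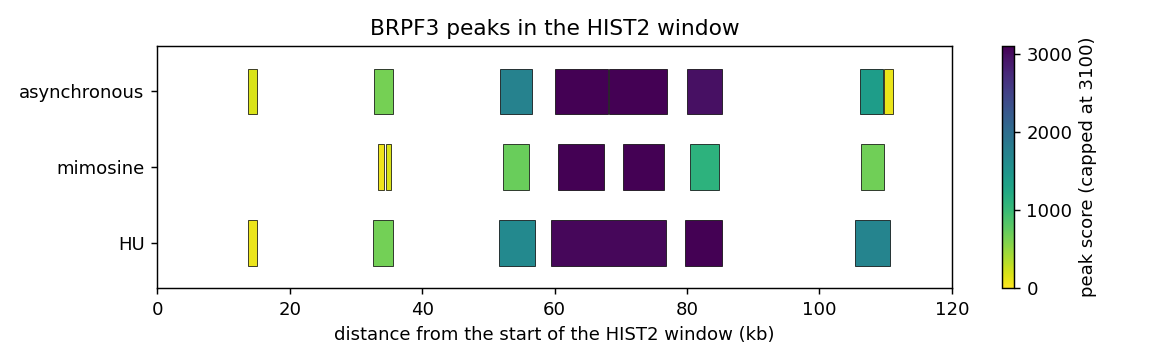
Extent of each BRPF3 peak in the HIST2 window, as distance from the window start in kb, 1 row per list, coloured by score with values above 3100 drawn as 3100. The 17485 bp region near the middle is 2 peaks in asynchronous and mimosine cells and 1 in HU cells, and the first region has no mimosine peak.

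HIST3, the smallest cluster, held 1 region, chr1:228642732-228646927. Its peak was 2421 bp wide with a score of 401 in asynchronous cells, 1443 bp with 157 in mimosine cells and 4196 bp with 478 in HU cells. These stood at the 40.3rd, 33.7th and 46.7th percentile of their lists. The peaks on either side of the 50 kb window were stronger in every list, with asynchronous scores of 1971 for chr1:228591503-228595492 and 1136 for chr1:228673667-228676670. The HU peak of HIST3 was 1.73 times as wide as the asynchronous one, the highest such ratio among the members.

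The share of regions called in all 3 lists was smaller in the histone clusters than over the whole series. Of the 89 regions, 44 held a peak in all 3 lists, or 49.4% (95% interval 38.7 to 60.2%), against 71.5% of all regions. A further 31 (34.8%, 25.0 to 45.7%, against 14.7%) had asynchronous and HU peaks but no mimosine peak. The HU list alone held 10 (11.2%, 5.52 to 19.7%, against 8.08%) and the asynchronous list alone 4 (4.49%, 1.24 to 11.1%, against 4.97%), shares near those of the series. No region was called in mimosine cells without both other lists, which is also near the series. Over all regions 0.349% were in mimosine and HU only, 0.142% in asynchronous and mimosine only, and 0.242% in mimosine alone. HIST1 accounted for 30 of the 31 asynchronous and HU regions, HIST2 for 1 and HIST3 for none.

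By peaks, 37 of 82 asynchronous members (45.1%, 34.1 to 56.5%) overlapped no mimosine peak, against 22.6% of the list. The same held for 41 of 85 HU members (48.2%, 37.3 to 59.3%), against 24.6%. In the other direction, 0 of 53 mimosine members lacked an asynchronous partner and 0 of 53 an HU partner, which allows a share of up to 6.72%, and the lists had 1.14% and 0.468%. Asynchronous and HU cells shared most sites: 4 of 82 asynchronous members had no HU peak (4.88%, against 5.46%) and 10 of 85 HU members no asynchronous peak (11.8%, against 8.82%), both near the series. The flank after HIST1 had a like makeup, with 23 of 50 regions in all lists (46.0%, 31.8 to 60.7%) and 21 in asynchronous and HU cells only (42.0%, 28.2 to 56.8%).

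The regions missing from the mimosine list had low scores in the other lists. The 5 of highest score in HIST1 were chr6:26923779-26925660 (322 in asynchronous and 255 in HU cells), chr6:27144006-27146320 (288 and 205), chr6:26364134-26367266 (263 and 163), chr6:26320478-26323573 (250 and 183) and chr6:27262975-27266346 (246 and 163). None of them reached 500. The 4 called in asynchronous cells alone, which are too weak to be among those 5, had scores of 65.6 (chr6:26183955-26184455), 72.7 (chr6:26330114-26332564), 57.5 (chr6:26401744-26403169) and 67.0 (chr6:27486003-27487744). The 10 called in HU cells alone scored from 51.3 to 96.7, the last at chr6:27869465-27871742. All of these are under 100.

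Set beside peaks of the same score band, which were chosen after values were seen, the widest gap between histone-cluster peaks and their list was from 200 to under 500. Of asynchronous members scoring 500 or more, 28 of 28 had a mimosine partner, against 99.6% of the list. From 200 to under 500 it was 9 of 17 (52.9%, 27.8 to 77.0%), against 84.5% of the list and 14 of 16 (87.5%, 61.7 to 98.4%) in the flank after HIST1. Scores were not matched within this band. Its members without a partner scored from 206 to 322, and those with a partner from 266 to 413. From 100 to under 200 it was 7 of 24 (29.2%, 12.6 to 51.1%), against 38.1%, and under 100 it was 1 of 13 (7.69%), against 9.76%.

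HU members gave 28 of 28 at 500 or more, against 99.8%. The HU share from 200 to under 500 was 9 of 12 (75.0%, 42.8 to 94.5%), against 86.5%. From 100 to under 200 it was 5 of 21 (23.8%, 8.22 to 47.2%), against 32.6%, and under 100 it was 2 of 24 (8.33%), against 6.30%. Only the asynchronous share from 200 to under 500 had an interval that left out the list's value. The makeup of the members by score differed too: 34.1% of asynchronous members scored 500 or more, against 53.2% of the list, and 29.3% lay from 100 to under 200, against 11.6%. With each list limited to its 5766 highest scores, which removes the low scores, HIST1 held 20 asynchronous, 20 mimosine and 18 HU peaks. Of the members left, 84.0% of 25 asynchronous and 90.9% of 22 HU peaks had a mimosine partner. The same shares over all peaks of the shortened lists were not computed. The part that sequencing depth has in the mimosine list was not tested.

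**Figure D4:**
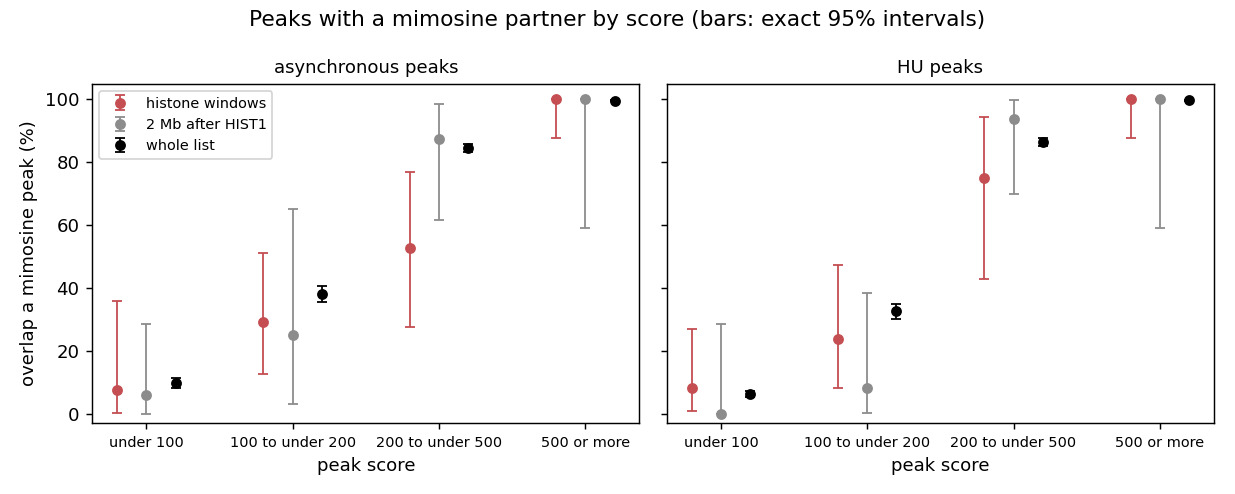
Share of asynchronous (left) and HU peaks (right) that overlap a mimosine peak, in %, by band of score, for the histone windows (red), the 2 Mb after HIST1 (grey) and the whole list (black), with exact 95% intervals. Shares rise with score in every set, and the histone-window share stands clearest below the list for asynchronous peaks of 200 to under 500 (52.9% against 84.5%). Scores were not matched within a band.

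Where a histone-cluster region held exactly 1 peak in each of the 3 lists, its mimosine peak was the narrowest. In the 35 regions with exactly 1 peak per list, the mimosine peak was narrower than the asynchronous peak in 35 of 35, against 98.2% of 8653 such regions in the series, and narrower than the HU peak in 35 of 35, against 99.9%. These shares are near those of the series. The median ratio of mimosine to asynchronous width was 0.596 (95% interval of the median 0.494 to 0.742, range 0.174 to 0.931), against 0.694 for all such regions, which lies inside that interval. Of mimosine to HU width it was 0.593 (0.413 to 0.637), against 0.630. The HU peak exceeded the asynchronous one in width in 26 of 35 (74.3%, against 75.1%), with a median ratio of 1.07, against 1.09.

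The ratio was lowest in weak histone-cluster regions. With an asynchronous score under 500, the median mimosine to asynchronous ratio was 0.400 in 16 member regions (0.320 to 0.548) and 0.595 in 2885 regions of the series. At 500 or more it was 0.759 in 19 member regions (0.655 to 0.839) and 0.734 in 5768. The ratio was thus lower at low scores in the series as well. Scores were not matched between members and series within these groups, so a difference at equal score was not tested. The lowest ratio, 0.174, was at chr6:27635496-27639314, where an asynchronous peak of 3527 bp (score 147) and an HU peak of 3214 bp (95.5) faced a mimosine peak of 612 bp (63.4). The highest, 0.931, was at chr6:26595628-26598795, with 2864, 2666 and 3168 bp in asynchronous, mimosine and HU cells and scores of 798, 592 and 1121. Among strong regions chr6:27437660-27442393 stood lowest, at 0.263, with 4623, 1218 and 4700 bp and scores of 1044, 143 and 1172.

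**Figure D5:**
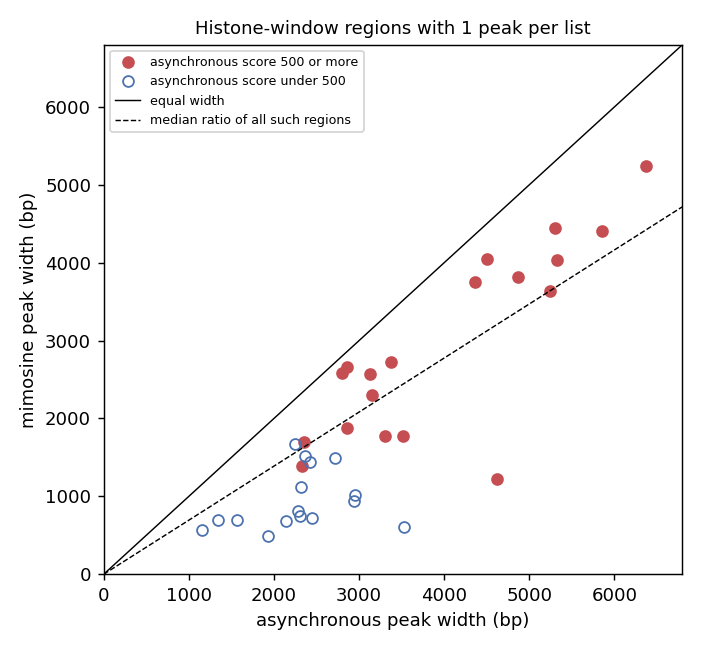
Width of the mimosine peak against that of the asynchronous peak, in bp, for the 35 histone-window regions with 1 peak per list, filled where the asynchronous score was 500 or more. All points lie under the line of equal width, and most open points lie under the dashed line, which is the median ratio of all such regions (0.694). That line includes regions of all scores.

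Mimosine peaks were also the ones most often broken into several. Of the 44 histone-cluster regions called in all lists, 8 held more than 1 mimosine peak (18.2%, against 11.9% of the series), 2 held more than 1 asynchronous peak (4.55%, against 2.81%) and 0 held more than 1 HU peak (against 1.15%, so near the series). The order of the lists was thus the same in the series. No interval was computed for these shares, which rest on few regions, and a difference from the series was not tested. Both asynchronous cases lay in HIST2, as did 2 of the mimosine ones. The 6 split mimosine regions of HIST1 included 3 already described, chr6:26194529-26200980, chr6:27774230-27780440 and chr6:27106432-27116207. The others were chr6:26249365-26254142 (scores of 1969, 327 and 1292 for asynchronous, mimosine and HU), chr6:26030762-26035036 (857, 188 and 668) and chr6:26215347-26219037 (369, 71.1 and 330). Outside the shared regions, chr6:26553027-26557321 held 2 asynchronous peaks (top score 92.5), 1 HU peak (137) and no mimosine peak.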

How the data were processed

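BRPF3 ChIP-seq peak lists of 3 RKO libraries, called against 1 IgG library per the names of the lists, were used. The submitters' processing notes name MACS 1.4.0, Bowtie 0.12.8, bedtools and SAMtools, with no settings, and both hg18 and hg19. Each deposited list gives a position and a score, the authors' value in the form MACS writes, 10 times the negative base-10 logarithm of p, with 50.0 the lowest. On the 10 chromosomes checked, 119 asynchronous, 113 mimosine and 117 HU peaks lie past the chromosome end in hg18 and 0 in hg19, so 1-based hg19 positions are printed. Reads were not analysed here.

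Members were peaks with their centre in a window. Peaks overlapping by 1 bp were merged or called partners. Rank percentiles average ties. Intervals of medians come from order statistics. No test was made, since each condition has 1 library. Membership was checked on the asynchronous list. Merging and overlap were checked on that list and a copy of it with some peaks removed at random and the rest narrowed. Regions named were all of HIST2 and HIST3 and, in HIST1, the 5 of highest score per list, the 5 widest, the 5 of highest score not in all lists, the split ones, the lowest and highest width ratio, and those nearest each edge. Other single-list regions, the strong region of low ratio, the score bands and the grouping of stretches were picked with their values known. The members and lists were chosen with earlier results of these data known. The work used SciPy 1.17.1, NumPy 2.4.6 and pandas 2.3.3 in Python 3.11.15, with matplotlib 3.10.9 for plots. Alternatives were lists of equal length, scores of at least 100, peaks of at most 10 kb, other overlap rules, shifted tiles, shorter bins and capped scores.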

Additional observations from a re-analysis of the deposited data

How the results depend on the processing

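The shares of members with a partner moved with the overlap rule and with the length of the lists. The lower number of HIST1 peaks in mimosine cells was not seen when each list was cut to its 5766 highest scores. This cut, from 13160 asynchronous, 11532 mimosine and 13431 HU peaks, removes the low scores, where peaks most often lacked a mimosine partner. Whether list length accounts for the lower number was not tested. With each list reduced to its 5766 highest scores (equal numbers), HIST1 held 20 asynchronous, 20 mimosine and 18 HU peaks. These covered 83.6 kb in asynchronous, 59.4 kb in mimosine and 87.9 kb in HU cells, so the covered length stayed lowest in mimosine cells. HIST2 then held 5 asynchronous peaks, and HIST3 had 0 peaks and 0 kb in every list. Merged regions then numbered 18 for all lists together, 2 for asynchronous with HU, 2 for mimosine with HU, 2 for asynchronous with mimosine, 2 for asynchronous alone and 0 for HU alone. The share of asynchronous members with a mimosine partner, 54.9% in the full lists, was 84.0% with equal numbers, 34.1% with a reciprocal overlap of 50%, and 37.8% with mimosine peaks of score 100 or more, a setting added after seeing the data. For HU members it was 51.8%, then 90.9%, 27.1% and 35.3%. For these and the other partner shares of this section, whole-list values under the changed settings were not computed. The share of mimosine members with an asynchronous partner was 100% in the full lists, 88.0% with equal numbers, 52.8% with the reciprocal overlap and 84.9% with centres within 1 kb. With an HU partner it was 92.0%, 43.4% and 83.0%. Asynchronous members with an HU partner were 84.0% with equal numbers and 85.5% at a score of 100 or more. At that score HIST1 held 29 mimosine peaks, and 4 regions were in HU and 10 in asynchronous cells alone. The share of tiles as dense as HIST1 was then 1.90% in mimosine, 0.262% in HU and 0.0654% in asynchronous cells. HIST1 was thus no longer the only tile of that density in HU cells. With tiles shifted by 1 Mb, HIST1 is no longer a tile of its own, and 0% were as dense as HIST1 in asynchronous and 0% in HU cells. Without peaks wider than 10 kb, HU peaks covered 20.7 kb of HIST2. The cause of these shifts was not tested, except that shorter lists hold fewer peaks by construction. Counting any overlap with a window (18 results), bins of 50 kb (3), merging within 1 kb (7), capped scores (3) and summed split peaks (3) moved no result beyond its counting interval or 1.5 times. No paired analysis was possible because each condition has 1 library, so the groups share fewer than 2 replicate numbers. Depth is unknown, so a site missing from the mimosine list may lie below what that library could show.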
